A study of Mus musculus with 2 samples.

Results

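The histone genes of the mouse were examined in whole-genome bisulfite sequencing (WGBS) of primary osteoblasts with and without the 3 TET enzymes. All protein-coding genes of GENCODE M21 (GRCm38) with a name that starts with Hist1h, Hist2h, Hist3h or Hist4h were taken, which gave 67 of the 21938 nuclear protein-coding genes. They comprised 6 genes of the linker histone H1, 18 of H2A, 18 of H2B, 12 of H3 and 13 of H4. Of these, 54 Hist1 genes lie on chromosome 13, 10 Hist2 genes on chromosome 3, 2 Hist3 genes on chromosome 11, and Hist4h4 alone on chromosome 6. Genes closer than 100 kb were joined, which gave 7 clusters. The largest, from Hist1h4h to Hist1h1a (chr13:23530550-23764906), holds 29 genes in 234 kb.

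The cells came from 3-day-old C57BL/6 mice and were cultured for 3 days. The WT library is from wild-type mice and the TCKO library from mice in which Tet1, Tet2 and Tet3 are all floxed (fl/fl) and deleted by Prx1-Cre. Prx1-Cre acts in limb and part of the skull mesenchyme and not specifically in osteoblasts, and a cell in which it did not act keeps its TET enzymes. With 1 library for each genotype, the differences have no replicate check, and a test compares these 2 libraries, not the genotypes. RNA of these cells was not analysed here, so osteoblast markers were not checked.

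The genes of these clusters encode the histones that package newly copied DNA, and most are transcribed in S phase. They have short transcription units that generally lack introns, and their mRNAs end in a conserved stem-loop in place of a poly(A) tail. H2A, H2B, H3 and H4 form the core of the nucleosome, and H1 binds the linker DNA. Hist1h1t (H1t), Hist1h2aa (TH2A) and Hist1h2ba (TH2B) encode the variants made mainly by germ cells of the testis and are called testis-type here. TET enzymes oxidise 5-methylcytosine (5mC) to 5-hydroxymethylcytosine (5hmC) and further products, which leads to demethylation. Bisulfite sequencing reads 5mC and 5hmC alike as methylated.

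The methylation level of a region is the share of methylated calls among all calls on its CG cytosines. The WT library held 261127589 calls (5.97 per CG cytosine of the reference) at a level of 70.2%, and the TCKO library 223645082 (5.11) at 76.3%. Over the targeted genes, few calls were left in TCKO at Tet1 exon 11 (76 calls in WT, 1 in TCKO), at Tet2 exons 9 (35 and 2) and 10 (248 and 57), and at Tet3 exons 8 (38 and 0) and 9 (66 and 7), each with 250 bp on either side, against a ratio of 0.856 for the whole libraries.

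Many H2A and H2B genes lie head to head, so that 1 short spacer between their coding exons holds both promoters. The spacer of the testis-type pair, Hist1h2ba and Hist1h2aa, is printed with that of Hist1h2ag and Hist1h2bj, the pair nearest to it in length. These spacers are printed because they differ sharply in methylation level. Each is given as its central 300 bases, read from the GRCm38 reference, with the CpGs in capitals.
Hist1h2ba/Hist1h2aa spacer (GRCm38 chr13:23934159-23934458, plus strand): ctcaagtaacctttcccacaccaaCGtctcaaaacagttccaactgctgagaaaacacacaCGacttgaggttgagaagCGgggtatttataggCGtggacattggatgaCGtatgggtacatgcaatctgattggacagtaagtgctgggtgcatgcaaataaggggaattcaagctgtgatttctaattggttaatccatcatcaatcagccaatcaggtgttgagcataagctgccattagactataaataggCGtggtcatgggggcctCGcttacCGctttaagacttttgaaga
Hist1h2ag/Hist1h2bj spacer (GRCm38 chr13:22042929-22043228, plus strand): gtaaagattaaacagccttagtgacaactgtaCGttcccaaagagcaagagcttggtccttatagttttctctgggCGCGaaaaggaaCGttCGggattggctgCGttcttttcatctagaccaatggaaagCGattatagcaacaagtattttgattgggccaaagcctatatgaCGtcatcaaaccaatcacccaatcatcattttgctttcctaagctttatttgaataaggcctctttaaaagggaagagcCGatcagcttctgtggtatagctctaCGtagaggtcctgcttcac
The CpG numbers were similar, 8 in the testis-type spacer and 10 in the other. Over its full 305 bp, the testis-type spacer had 57 of 69 calls methylated in WT (82.6%, 95% Wilson interval 72.0 to 89.8) and 28 of 41 in TCKO (68.3%, 53.0 to 80.4), a difference within counting error (p = 0.102, 2-sided Fisher exact test). The printed bases of the Hist1h2ag/Hist1h2bj spacer had 0 of 65 calls methylated in WT, which allows a share of up to 4.62%, and 0 of 53 in TCKO, which allows up to 5.66%. The 11 spacers of the other H2A and H2B pairs, 278 to 334 bp long, together had 0 of 534 calls methylated in WT, which allows up to 0.562%, and 2 of 525 in TCKO (0.381%). All 11 stood at 0 in WT and 9 in TCKO. The testis-type spacer thus lay 82.6 percentage points above the others in WT (95% interval 72.0 to 89.8, p = 1.83e-68, 2-sided Fisher exact test) and 67.9 points above them in TCKO (52.6 to 80.1, p = 3.67e-35).

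The linker genes Hist1h1t and Hist1h1e, the latter expressed in somatic cells, differed in the part of their promoters that was covered. Both promoters are printed from 250 bases before to 50 bases after the start, as given in the RefSeq promoter table (GRCm38.p6), with the CpGs in capitals.
Hist1h1t promoter (GRCm38 chr13:23695561-23695860, plus strand): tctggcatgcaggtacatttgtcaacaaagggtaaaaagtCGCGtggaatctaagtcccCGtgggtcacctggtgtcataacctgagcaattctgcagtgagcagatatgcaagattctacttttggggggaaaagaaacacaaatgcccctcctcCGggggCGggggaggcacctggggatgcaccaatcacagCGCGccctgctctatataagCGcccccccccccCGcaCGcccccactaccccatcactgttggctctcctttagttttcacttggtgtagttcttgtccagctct
Hist1h1e promoter (GRCm38 chr13:23622509-23622808, minus strand): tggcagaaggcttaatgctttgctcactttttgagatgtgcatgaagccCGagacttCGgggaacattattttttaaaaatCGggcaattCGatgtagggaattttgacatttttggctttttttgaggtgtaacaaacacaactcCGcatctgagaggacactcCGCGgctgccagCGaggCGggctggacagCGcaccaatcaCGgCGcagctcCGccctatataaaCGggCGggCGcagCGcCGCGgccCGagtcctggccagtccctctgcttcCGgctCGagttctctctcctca
In the Hist1h1t promoter, 22 of 32 calls were methylated in WT (68.8%, 51.4 to 82.0) and 16 of 28 in TCKO (57.1%, 39.1 to 73.5). Nearly all of these calls fell on the 3 CpGs farthest from the start, at bases 41, 43 and 60 of the printed sequence, where WT had 8 of 9, 7 of 9 and 6 of 9 calls methylated. The 7 CpGs from base 157 on had 5 calls in WT, 1 of them methylated, and 0 calls in TCKO, so the level next to the start of Hist1h1t was not measured. The Hist1h1e promoter, with 22 CpGs, had 1 of 95 calls methylated in WT and 0 of 83 in TCKO.

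**Figure D1:**
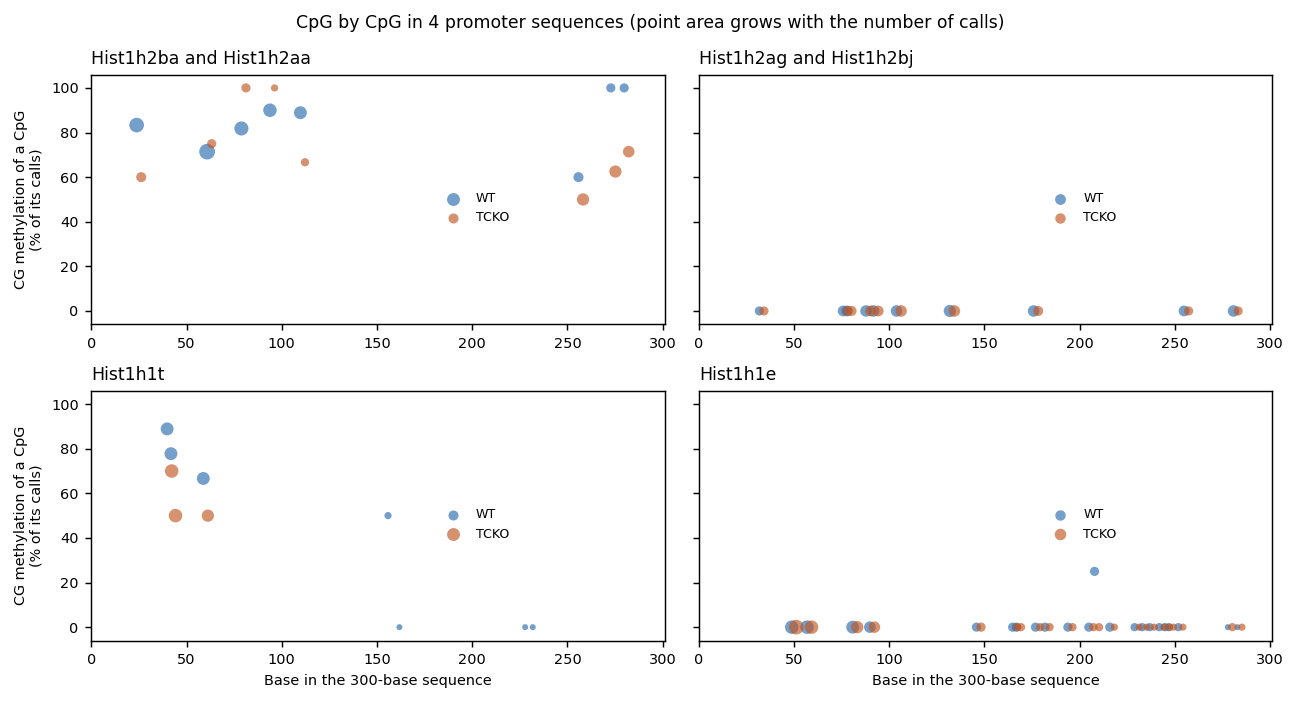
Methylation level of each CpG (% of its calls, y axis) along the 300 bases of the 4 printed sequences (x axis, base from the 5′ end), with WT in blue and TCKO in orange and the point area growing with the number of calls. The CpGs of the testis-type spacer sit between 50% and 100% in both libraries, while those of the Hist1h2ag/Hist1h2bj spacer all sit at 0.

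The promoter table held 61 of the 67 genes, 58 of them not testis-type. Of these 58 promoters, 49 had no methylated call in WT, 50 had none in TCKO and 45 had none in either. The shares over all promoters are not given here, so these counts do not set the histone genes apart. Some promoters held few calls, such as Hist2h3c1 with 1 in WT and 3 in TCKO, and a count of 0 there says little. The 58 promoters carried a median of 11 CpGs (3 to 41), against 7 in all 32851 promoters of the table. Letters of known promoter elements were searched in both strands of the same 300 bases. The promoters of head-to-head H2A and H2B pairs overlap, so calls and elements in the shared bases count for both genes. CCAAT stood in all 6 H1, 17 H2A, 16 H2B and 10 H3 promoters and in 3 of 12 H4 promoters, against 37.4% of all promoters. TATAAA stood in 4 of 6 H1, 11 of 17 H2A, 8 of 16 H2B, 4 of 10 H3 and 8 of 12 H4 promoters, against 13.6%. ATTTGCAT, the octamer known from H2B promoters, stood in 7 of 17 H2A and 7 of 16 H2B promoters and in none of the other classes, against 1.74%. AAACACA, the H1 box, stood in 5 of 6 H1, 2 of 17 H2A and 2 of 16 H2B promoters and in none of the H3 and H4 promoters, against 7.18%. The promoters of Hist1h2aa and Hist1h2ba held all 4 of these elements, and that of Hist1h1t held CCAAT and AAACACA. The H1 box thus stood in all 3 testis-type promoters and in 6 of the 58 others, while CCAAT stood in all 3 and in 49 of the 58. The promoters of Hist1h2aa and Hist1h2ba share the same H1 box in their spacer, so these genes are not separate cases.

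The 3′ end was also searched, in the 200 bases after the longest coding exon, for the stem-loop of histone mRNAs, written as GGCTCT, 4 bases and AGAGCC. H4 genes were found to lack these letters, and GGCCCT, 4 bases and AGGGCC was added after that was seen. The 3 commonest forms are printed as DNA, with the loop in capitals, because they mark the replication-dependent genes whatever their methylation.
Stem-loop of 41 genes: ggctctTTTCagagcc
Stem-loop of 9 genes: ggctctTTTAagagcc
Stem-loop of 8 H4 genes: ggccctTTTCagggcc
Either form stood in 63 of the 67 genes and in 5 of the 21871 other protein-coding genes (0.0229%). GGCCCT was the stem of 11 of the 13 H4 genes and of no other class. All 3 testis-type genes held a stem-loop.

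Methylation across the whole gene windows was low for most histone genes and high for the testis-type genes. A gene window is the annotated gene with 500 bp on each side. Pooled over the 67 windows, 7118 of 28785 calls were methylated in WT (24.7%) and 6585 of 23981 in TCKO (27.5%), a rise of 2.73 points (1.98 to 3.48, p = 1.16e-12, 2-sided Fisher exact test). By gene, the level was under 10% in 50 windows in WT and in 45 in TCKO, and the median level was 2.91% for WT and 4.40% for TCKO. Among all 21863 protein-coding genes tested, the medians were 68.1% and 74.3%, and 283 genes were under 10% in WT. Those windows span whole genes, with a median of 2002 WT calls against 325 in histone genes, so the 2 sets are not alike. Windows from 500 bp upstream to 1000 bp downstream of the start have equal length. There, 59 of 67 histone genes and 9224 of 21492 genes were under 10% in WT, with WT medians of 1.59% and 15.5%. The annotation bears on these levels. For 14 genes GENCODE M21 extends the gene by over 1000 bp past its longest coding exon, the longest being Hist1h2be with 37455 bp, whose window also reaches into that of Hist1h1e and holds 18.2% of the WT calls of all windows. The longest coding exon itself had a median of 387 bp. A window of the longest coding exon with 500 bp on each side, called the exon window here, was therefore added after the data were seen. Over the 64 genes other than testis-type, exon windows had 2.11% (352 of 16682 calls) in WT and 2.50% (344 of 13747) in TCKO, a rise of 0.392 points (p = 0.0230, Fisher exact test). The rest of the gene windows, outside the exon windows, had 54.4% in WT and 60.0% in TCKO.

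Coverage of the coding exons was thin. Only 73.4% of their CG cytosines had a call, with 1.06 calls per cytosine in WT and 0.930 in TCKO, against 3.98 and 3.16 in the 500 bp beside the coding exons of the genes other than testis-type. Histone coding exons resemble each other. Of the 67 longest coding exons, 58 had another of their class of the same length, and the highest identity to one had a median of 98.7%. At 100% stood 4 pairs, Hist1h2ao and Hist1h2ap, Hist1h2bq and Hist1h2br, Hist1h4m and Hist1h4n, and Hist2h2aa1 and Hist2h2aa2. The authors kept uniquely mapped reads, and reads that fit several copies equally well are not unique. Whether this lowered the coverage was not tested. Within the 64 coding exons other than testis-type, 23 of 5023 calls were methylated in WT (0.458%) and 18 of 4480 in TCKO (0.402%, p = 0.755, Fisher exact test), and 41 of the 64 had no methylated call in either library.

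**Figure D2:**
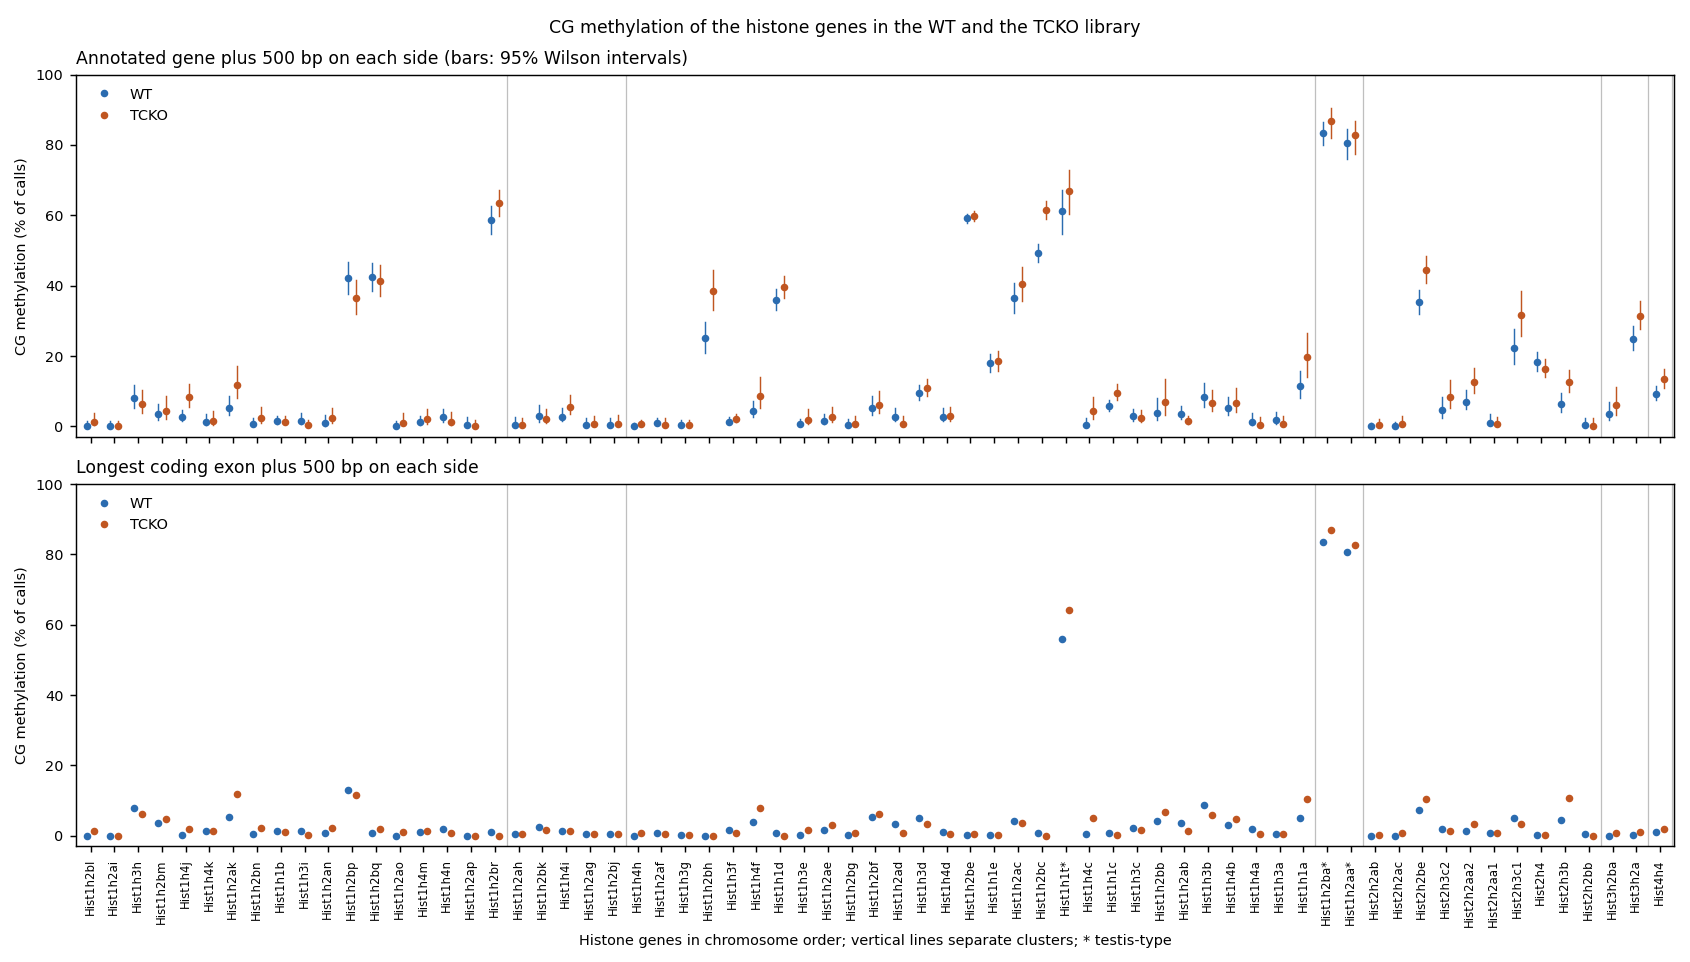
CG methylation level (% of calls, y axis) of each of the 67 histone genes in chromosome order (x axis), WT in blue and TCKO in orange, for the annotated gene plus 500 bp (top, bars are 95% Wilson intervals) and the longest coding exon plus 500 bp (bottom). In the lower panel the 3 testis-type genes, marked with an asterisk, sit between 56.1% and 86.9% and all other genes lower.

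The testis-type windows were methylated in both libraries. Hist1h1t (chr13:23695814-23696725, plus strand) had 143 of 234 calls methylated in WT (61.1%) and 146 of 218 in TCKO. Hist1h2ba (chr13:23933773-23934156, minus strand) had 419 of 502 (83.5%) and 205 of 236 (86.9%). Hist1h2aa (chr13:23934462-23934851, plus strand) had 278 of 345 (80.6%) and 206 of 249 (82.7%). None of the 3 passed the per-gene test, with adjusted p from 0.259 to 0.590 (Fisher exact test, adjusted by Benjamini-Hochberg across 21863 genes). Pooled, they had 75.8% in WT and 78.4% in TCKO, a difference of 2.62 points (-1.77 to 6.88, p = 0.260, Fisher exact test). The windows of the other 64 genes had 23.1% and 26.1%, a rise of 3.05 points (p = 1.32e-15, Fisher exact test). Testis-type genes were thus 52.7 points higher in WT (p = 2.17e-233, Fisher exact test) and 52.3 points higher in TCKO (p = 3.65e-153). The changes in TCKO differed by -0.431 points between testis-type and other windows, with a 95% Wald interval of -4.82 to 3.96. In exon windows, the testis-type genes had 75.4% and 78.3% and were 73.3 points above the others in WT and 75.8 points above them in TCKO.

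Over the coding exons of the testis-type genes, the level was higher in the TCKO library. Pooled, 68.2% of 453 calls were methylated in WT and 77.9% of 326 in TCKO, a rise of 9.70 points (3.37 to 15.8, p = 0.00344, Fisher exact test, not adjusted for the other distances examined). The value was higher in TCKO in each of the 3 exons, by 11.5 to 14.1 points. The pooled rise is below all of these, as pooled levels also depend on how the calls divide among the genes. The exon of Hist1h2ba, the most methylated, held 240 of the 453 calls in WT and 104 of the 326 in TCKO. The same limit applies to the pooled testis-type windows, where Hist1h2ba held 502 calls in WT and 236 in TCKO. Other distances from these exons went both ways. The difference was -11.8 points (-27.8 to 3.72) in the 250 bp upstream and -6.87 points (-17.8 to 2.89) in the 250 bp downstream. At 2000 to 3000 bp downstream it was 17.6 points (8.60 to 26.4), and at 3000 to 5000 bp downstream 12.9 points (7.32 to 18.2). A rise was thus not seen only at the exons. Distances are to the nearest coding exon, so the genes behind a value change with distance. Upstream of the pair, distances end within its spacer, so the farther upstream values come from Hist1h1t alone. Hist1h1t also lies next to highly methylated sequence. The sequence between Hist1h2bc and Hist1h1t, which leads up to Hist1h1t, had the highest level of all stretches between histone genes, 88.0% (331 of 376 calls) in WT and 89.6% in TCKO. CpGs were sparser in the pooled exon windows of the testis-type genes, at 33.24 per kb against 49.99 in those of the other 64. By gene, the ratio of observed to expected CpGs in the exon window was 0.404 to 0.673 in the 3 testis-type genes. In the other 64 it was 0.463 to 0.980, with a median of 0.796. Of these 64, 7 lay under the highest testis-type value and none under the lowest, so the ranges overlapped in part.

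Linker genes other than Hist1h1t had window levels from 1.52% in Hist1h1b, the lowest H1 gene, to 36.1% in Hist1h1d in WT. Hist1h1a rose from 11.4% (30 of 263 calls) to 19.6% (31 of 158, adjusted p = 0.0342) and Hist1h1c from 5.73% (46 of 803) to 9.62% (63 of 655, adjusted p = 0.0108, Fisher exact test). In exon windows the 5 linker genes were at 0.249% to 5.15% in WT and 0 to 10.5% in TCKO, the highest being Hist1h1a.

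H2A genes had the lowest median window level, 0.922% in WT and 0.806% in TCKO over the 17 genes other than Hist1h2aa. Hist1h2ai had 0 of 262 calls methylated in WT and 0 of 266 in TCKO, which allows up to 1.15% and 1.13%. Hist1h2ak rose from 5.34% (14 of 262) to 11.8% (23 of 195, adjusted p = 0.0232, Fisher exact test). Among H2B genes, Hist1h2bl had 0 of 256 calls methylated in WT, which allows up to 1.17%, and 3 of 234 in TCKO. The 2 largest rises of all histone genes were in H2B genes with extended annotations. Hist1h2bh rose from 95 of 380 calls (25.0%) to 107 of 278 (38.5%), by 13.5 points (6.31 to 20.6, adjusted p = 4.51e-04), and Hist1h2bc from 753 of 1528 (49.3%) to 786 of 1278 (61.5%), by 12.2 points (8.54 to 15.9, adjusted p = 2.83e-10, Fisher exact test). In the exon window, Hist1h2bh had 0 of 206 and 0 of 121 calls methylated, and Hist1h2bc had 0.763% in WT and 0 in TCKO, so these rises lay outside the exon windows.

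H3 genes ranged from 0.326% in Hist1h3g to 22.3% in Hist2h3c1 in WT, and H4 genes from 0.188% in Hist1h4h to 18.2% in Hist2h4. Hist1h4j rose from 2.71% (13 of 480) to 8.21% (23 of 280, adjusted p = 0.00199) and Hist1h4c from 0.437% (1 of 229) to 4.40% (8 of 182, adjusted p = 0.0194, Fisher exact test). Without the testis-type genes, the pooled exon-window levels of the classes in WT were 1.37% for H1, 1.51% for H2A, 2.38% for H2B, 3.25% for H3 and 1.28% for H4, and in TCKO 1.35%, 1.84%, 2.82%, 3.31% and 1.80%.

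Of the 67 gene windows, 13 were higher in TCKO (19.4%) and 0 lower (Fisher exact test, adjusted p under 0.05), and 0 were lower at an unadjusted p under 0.05. Over all 21863 genes tested, 65.0% were higher and 2.91% lower, with a median change of 5.67 points against 0.837 points in histone genes. With cytosines of at least 4 calls in both libraries, 8 histone windows were higher, against 61.7% of 21559 genes, and 2 were higher by at least 10 points over all cytosines, against 14.9%. Histone windows held fewer calls, with a median of 325 in WT against 2002. Windows from 500 bp upstream to 1000 bp downstream of the annotated start are equal in length for all genes. There, 3 of 67 histone genes were higher (Hist1h2ak, Hist1h4j and Hist2h3b) and 0 lower, against 15.9% and 1.29% of 21492 genes. Of the windows under 10% in WT, 2 of 59 histone genes were higher and 0 lower, against 15.0% and 0.369% of 9224 genes, with a median of 287 WT calls in histone genes and 258 in all. Pooled over these windows, the 59 histone genes went from 2.24% to 2.81%, a rise of 0.577 points (0.238 to 0.922), and the 9165 other genes from 2.78% to 5.00%, a rise of 2.22 points (2.18 to 2.25). The rise of the histone genes was smaller by 1.64 points (95% Wald interval 1.30 to 1.98). These windows were picked by the same WT calls that TCKO is compared with, which by itself favours rises over falls in both sets. How far this differs between the sets was not tested, and the interval does not cover it. In exon windows, 1 histone gene was higher (Hist2h3b, adjusted p = 0.0224, Fisher exact test) and 0 lower, against 13.4% and 0.885% of 21470 genes.

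The Hist2 cluster on chromosome 3 held 4 of the 13 genes that rose. These were 4 of its 10 genes, where 65.0% of all genes tested were higher. Hist2h2be, an H2B gene, went from 269 of 762 calls (35.3%) to 285 of 640 (44.5%, adjusted p = 8.43e-04, Fisher exact test). Hist2h3c1 went from 63 of 282 (22.3%) to 66 of 208 (31.7%, adjusted p = 0.0340), Hist2h3b from 22 of 349 (6.30%) to 55 of 433 (12.7%, adjusted p = 0.00597), and Hist2h2aa2 from 25 of 354 (7.06%) to 43 of 341 (12.6%, adjusted p = 0.0236, Fisher exact test). The remaining 6 did not pass the test. Hist2h4 had 18.2% and 16.4% and Hist2h3c2 4.55% and 8.42%. Hist2h2aa1 had 0.952% and 0.775%, Hist2h2bb 0.417% and 0, Hist2h2ab 0 and 0.357%, and Hist2h2ac 0 and 0.791%, all under 1% in both libraries. The coding exon of Hist2h3b, whose product is a replication-dependent H3, has a match at 99.8% identity. In the Hist3 cluster, Hist3h2a went from 154 of 617 calls (25.0%) to 172 of 546 (31.5%, adjusted p = 0.0239), and Hist3h2ba had 3.66% and 6.04% (adjusted p = 0.388, Fisher exact test). Hist4h4, the single gene on chromosome 6, went from 77 of 828 (9.30%) to 86 of 640 (13.4%, adjusted p = 0.0232, Fisher exact test). In their exon windows, Hist3h2a, Hist3h2ba and Hist4h4 were at 1.91% or less in both libraries.

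The sequence between the genes carried more methylation and a larger rise. It was taken from the start of the first window to the end of the last in a cluster, without the gene windows. There, 19479 of 29773 calls were methylated in WT (65.4%) and 17915 of 25064 in TCKO (71.5%), a rise of 6.05 points (5.27 to 6.83, p = 4.49e-52, Fisher exact test). This rise exceeded that in the gene windows by 3.32 points (95% Wald interval 2.24 to 4.40), and with exon windows the difference was 5.77 points (4.92 to 6.63). CpGs were sparser between the genes, at 9.39 per kb against 29.8 in the gene windows and 49.2 in the exon windows. The 50 kb on either side of the clusters had 53.7% and 58.9%.

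The clusters shared this order of levels. Between the genes of the Hist2 cluster, the level went from 62.3% to 72.4%, and the rise exceeded that in its gene windows (15.9% to 18.9%) by 7.13 points (95% Wald interval 4.25 to 10.003). From Hist1h4h to Hist1h1a the rise between the genes (65.7% to 70.6%) exceeded that in the windows by 2.15 points (0.591 to 3.70), and from Hist1h2ah to Hist1h2bj (61.1% to 70.8%) by 8.90 points (1.54 to 16.3). The interval held 0 from Hist1h2bl to Hist1h2br (1.86 points, -0.0997 to 3.82) and in the Hist3 cluster (1.82 points, -4.69 to 8.34). Of the 30 stretches between neighbouring windows with at least 20 calls in each library, 27 had a higher value in TCKO and 3 a lower one, and the median level was 63.4% for WT and 70.3% for TCKO. The largest rise was between Hist1h4k and Hist1h2ak, from 229 of 474 calls (48.3%) to 243 of 348 (69.8%), by 21.5 points (14.8 to 27.9). Between Hist2h2aa2 and Hist2h2aa1 the level went from 59.1% to 74.9%.

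**Figure D3:**
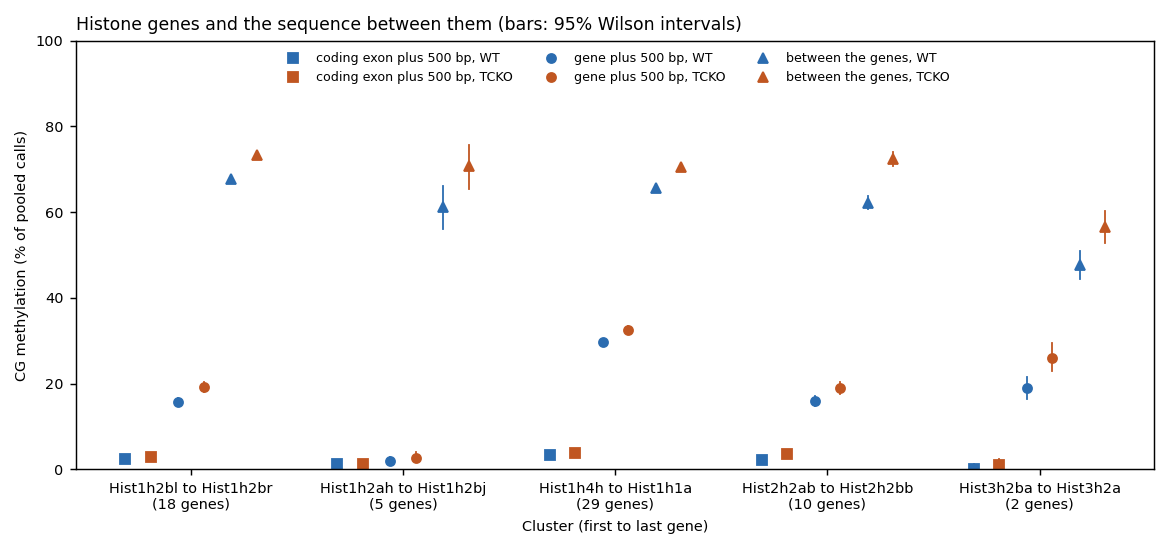
CG methylation level (% of pooled calls, y axis) of the exon windows (squares), gene windows (circles) and the sequence between the genes (triangles) in each cluster with sequence between its genes (x axis), WT in blue and TCKO in orange, with 95% Wilson intervals. In every cluster the triangles sit highest, between 47.7% and 73.3%, and the squares at 3.80% or less in all 5.

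The levels of the 64 genes other than testis-type rose with distance from the coding exon up to 1500 to 2000 bp and were lower at 3000 to 5000 bp. In the 250 bp upstream of the exon, the level was 0.451% in WT and 0.310% in TCKO, at 500 to 750 bp 22.7% and 29.6%, and at 1500 to 2000 bp 71.2% and 76.9%. Downstream, the level was 1.96% and 3.05% in the first 250 bp, 13.98% and 22.02% at 500 to 750 bp, 30.6% and 43.6% at 750 to 1000 bp, and 77.3% and 82.5% at 1500 to 2000 bp. At 3000 to 5000 bp, the level was 51.8% and 56.0% upstream and 60.3% and 63.5% downstream. Of the 17 distances examined, the largest rise in TCKO was on the downstream slope. It was 13.04 points (9.91 to 16.1, p = 3.12e-16, Fisher exact test) at 750 to 1000 bp. The upstream slope did not stand out, with a rise of 6.88 points at 500 to 750 bp against 6.61 points at 2000 to 3000 bp. In the 250 bp upstream, the difference was -0.140 points (-0.457 to 0.188, p = 0.424, Fisher exact test). The testis-type genes did not fall to such low levels, with 77.1% in WT and 65.3% in TCKO in the 250 bp upstream. A shallower dip was seen in WT, with 68.2% inside their exons against 85.4% in the 250 bp downstream. In TCKO these values were 77.9% and 78.6%. The exon of Hist1h1t was the lowest, at 44.7% in WT and 58.3% in TCKO.

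**Figure D4:**
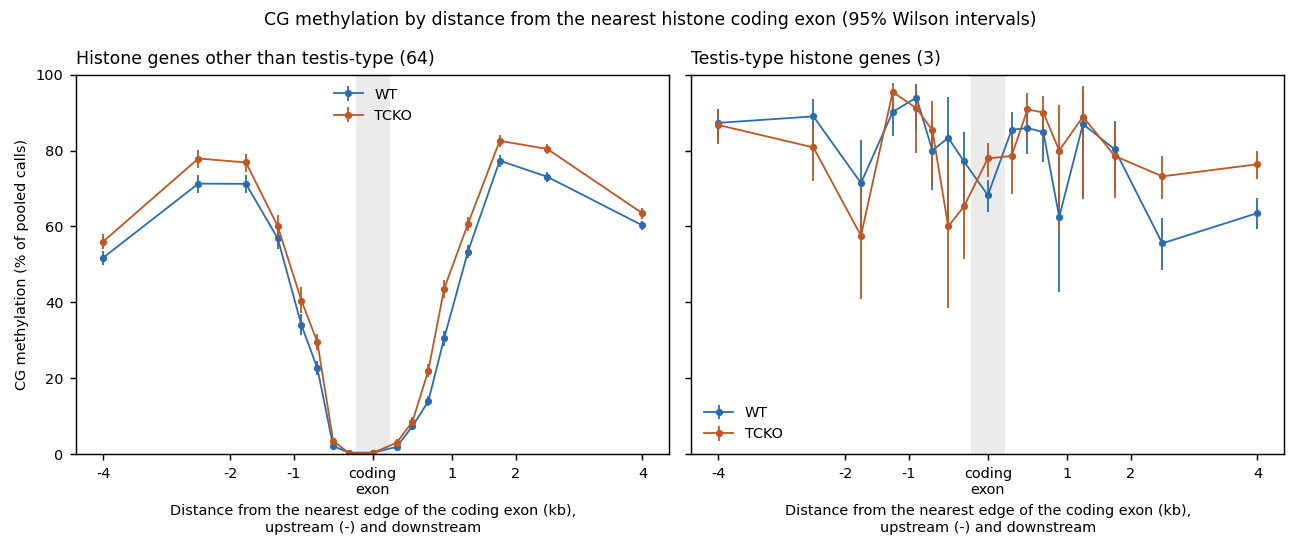
CG methylation level (% of pooled calls, y axis) against the distance in kb from the nearest edge of the longest coding exon (x axis, upstream negative, the exon drawn as a grey band of fixed width), for the 64 histone genes other than testis-type (left) and the 3 testis-type genes (right), WT in blue and TCKO in orange, with 95% Wilson intervals. On the left both libraries fall below 1% at the exon and rise past 70% by 1500 to 2000 bp. TCKO lies above WT on both slopes, and both libraries are lower again at 3000 to 5000 bp. On the right, the genes that contribute change with distance.

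Bins of 200 bp were counted as differentially methylated (CG-DMRs) at a difference above 40 points and at least 4 CG cytosines, both strands counted, with an adjusted p under 0.05 (Fisher exact test) and a mean of at least 4 calls per cytosine in each library. In the gene windows, 2 of 206 testable bins were higher in TCKO and 0 lower, and between the genes 5 of 312 and 0, against 2.86% and 0.0350% of 2534629 bins of the genome. None of the 81 testable bins of the exon windows passed. The study asks for 4 CG sites in a bin. Where that means 4 CpGs, or 8 cytosines on both strands, the rule used here is looser, and with at least 8 cytosines 1 of 91 bins in the gene windows and 1 of 63 between the genes were higher, against 3.23% of 545991 bins. At a difference above 20 points with at least 4 cytosines, 9 of 206 and 12 of 312 were higher, against 6.12%, and with a mean of at least 10 calls 1 of 43 and 0 of 57, against 1.91%. The 2 bins in gene windows lie downstream of coding exons, that of Hist1h2bc (chr13:23686001-23686200, 1492 bp) with 11 of 109 calls methylated in WT and 58 of 98 in TCKO, and that of Hist3h2a (chr11:58956001-58956200, 974 bp), which also lies within Trim17, with 8 of 47 and 36 of 61. The largest rise of the 7 bins was upstream of Hist2h2aa1 and is printed with its CpGs in capitals. It holds 3 CpGs and so passes only the looser rule.
Bin upstream of Hist2h2aa1 (GRCm38 chr3:96244601-96244800, plus strand): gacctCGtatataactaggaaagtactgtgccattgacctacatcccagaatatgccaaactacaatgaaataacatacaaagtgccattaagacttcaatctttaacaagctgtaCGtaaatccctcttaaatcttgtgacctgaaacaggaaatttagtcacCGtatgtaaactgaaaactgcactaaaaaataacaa
Over this bin, 15 of 67 calls were methylated in WT (22.4%) and 30 of 36 in TCKO (83.3%, adjusted p = 4.47e-07, Fisher exact test). All 3 CpGs were higher in TCKO, from 7 of 17 to 11 of 14 calls at base 6, from 5 of 22 to 8 of 9 at base 117 and from 3 of 28 to 11 of 13 at base 165.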

How the data were processed

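WGBS was analysed in 1 WT and 1 TCKO library of primary osteoblasts, assigned by the genotype in the labels. The authors aligned reads to GRCm38 with BSMAP 2.74, allowing 2 mismatches, and used reads that mapped uniquely. The deposited files hold 2 raw counts per CG cytosine and strand, methylated calls and total calls. Whether duplicates were removed was not given in the sources used here. The other assays of the series were not analysed here.

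Histone genes came from GENCODE M21, and the members and lists were chosen with earlier results of these data known. Levels were pooled calls, each cytosine counted once, with 95% Wilson intervals, and differences have 95% Newcombe intervals. Calls on 1 read are not independent, so intervals, p-values and the limits for a count of 0 (3 calls of the total) cover counting error only. Libraries were compared with the 2-sided Fisher exact test, and changes with the Wald test of a difference of differences. The per-gene test was adjusted by Benjamini-Hochberg over all protein-coding genes with at least 20 calls in each library, and bins over all testable bins of the genome. The study called CG-DMRs with DMRcaller, which was not used here, and does not name the test. The start is the 5′ end of the annotated gene.

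Genes named are the testis-type genes, all Hist2, Hist3 and Hist4 genes, the lowest and highest WT level of each class, the 10 largest rises and 5 largest falls past the test, and, of the genes outside the clusters, the 5 largest changes and all germline genes. Other genes named were chosen after their values were seen. Alternatives changed the averaging, the minimum of calls, flanks, cluster joining, windows and the CG-DMR rule. The exon windows, the set without Hist1h2be, the bins of at least 8 cytosines and the GGCCCT stem were added after the data were seen. The code was tested on simulated data. It used matplotlib 3.10.9, numba 0.67.0, scipy 1.17.1 and numpy 2.4.6 under Python 3.11.15.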

Additional observations from a re-analysis of the deposited data

How the results depend on the processing

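No paired analysis was possible because each genotype has 1 library and the labels give no replicate numbers. Of 92 alternative values, 77 kept their direction and side of the threshold or, for counts, changed little or not at all. Some of the 77 are no check, because the setting left the calls unchanged. Leaving out overlapping flanks, for example, gave the same testis-type and other values as the main setting. The pooled change over all 67 windows was -0.155 points (p = 0.556, Fisher exact test) in exon windows. The change of the testis-type genes minus that of the others was 4.76 points without flanks and 2.43 points in exon windows. Without flanks the testis-type change was 7.91 points (p = 0.0131, Fisher exact test). The number of windows higher in TCKO was 2 with a difference of at least 10 points (14.9% of all genes), 3 in windows at the start (15.9%), 8 with sites of at least 4 calls in both libraries (61.7%), and 1 in exon windows (13.4%). With a mean of at least 10 calls, 1 of 43 bins in gene windows and 0 of 57 between the genes were higher (1.91% of all bins), with a difference above 20 points 9 of 206 and 12 of 312 (6.12%), and with at least 8 cytosines, added after the data were seen, 1 of 91 and 1 of 63 (3.23%). Of the 41 genes outside the clusters, 2 were higher by at least 10 points, against 11.4% of all genes. The causes were not tested. Depth limits the coding exons most, with 0.0139 to 4.29 calls per CG cytosine in WT, the lowest in Hist1h2br.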

Other observations

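Genes outside the clusters that serve histones were compared in windows from 500 bp upstream to 1000 bp downstream of the start. Of 41 such genes, 6 were higher in TCKO and 0 lower (Fisher exact test, adjusted by Benjamini-Hochberg across 21492 genes), against 15.9% and 1.29% of all genes. The list was thus close to the share over all genes, and the 6 genes below do not set it apart. At an unadjusted p under 0.05, 1 gene was lower. Prm3, a germline gene of the protamine cluster, went from 103 of 142 calls (72.5%) to 83 of 92 (90.2%, adjusted p = 0.00862, Fisher exact test). H2afy, which encodes macroH2A1, went from 32.0% to 47.5% (adjusted p = 0.0486, Fisher exact test). Sympk and Cpsf2, whose products process histone mRNA ends, went from 1.30% to 6.63% (adjusted p = 0.0388) and from 0.242% to 4.68% (adjusted p = 2.84e-04, Fisher exact test). Daxx, an H3.3 chaperone, went from 0 of 553 calls, which allows up to 0.542%, to 7 of 185 (adjusted p = 8.99e-04, Fisher exact test). H2afv, an H2A.Z gene, was the sixth, from 0 of 383 calls, which allows up to 0.783%, to 2.94%. Npat, which encodes the coactivator of replication-dependent histone genes, had 0 of 289 and 5 of 386 calls methylated, and Slbp, the stem-loop binding protein, 0.976% and 1.88%, and neither passed the test.

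The 11 germline genes of this list were methylated in both libraries, from 62.4% to 88.2% in WT and from 60.0% to 90.2% in TCKO, as were the testis-type genes of the clusters. Prm1 had 87.2% and 87.5%, Prm2 62.4% and 60.0%, Tnp1 87.4% and 90.1%, and Tnp2 70.5% and 72.9%. The linker genes H1foo, H1fnt and Hils1 had 83.9% and 88.2%, 82.2% and 71.4%, and 68.0% and 71.8%, and H1fnt was the gene lower at an unadjusted p (adjusted p = 0.0543, Fisher exact test). H2afb1, H2afb2 and H2afb3 on the X chromosome had 85.9%, 78.8% and 88.2% in WT and 89.6%, 85.0% and 83.7% in TCKO.

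The 3 histone pseudogenes, outside the 67 genes, differed in level. In the pseudogene with 500 bp on each side, Hist3h2bb-ps had 2 of 311 calls methylated in WT and 0 of 328 in TCKO, Hist1h2aj had 29 of 315 (9.21%) and 38 of 261 (14.6%, p = 0.0506, Fisher exact test), and Hist1h2al, which lies far from the other genes on chromosome 13 (chr13:51202727-51203065), had 56.5% and 50.4% (p = 0.0712). Hfe, the iron regulator whose start lies within the Hist1 cluster, had 69 of 157 calls methylated at its start in WT (43.9%) and 59 of 163 in TCKO (36.2%, adjusted p = 0.418, Fisher exact test).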
